A study of Mus musculus with 30 samples.

Results

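Neuropeptide genes were followed in the stroke-denervated cervical spinal cord of mice. The set held 10 genes picked by name, Penk, Pdyn, Tac1, Sst, Cck, Npy, Nts, Grp, Gal and Adcyap1. The rule itself used no expression value, but the set was drawn up with earlier results of these data known. Of these 10, 9 had values among the 16995 genes of the table, and Grp was not analysed here. RNA came from the intermediate laminae of the denervated cervical hemicord of adult C57BL/6 mice, all of them female. The right sensorimotor cortex was lesioned by photothrombosis, in which light clots a photosensitive dye in the vessels, and cords were taken at 4, 7, 14, 28 or 42 dpi (days after the stroke). Animals labelled Ctrl are read here as the sham-operated group of the methods. The sham, 7, 14, 28 and 42 dpi groups held 5 animals each and the 4 dpi group held 4, with 1 sample per animal. The tissue was trimmed by hand with blades and holds all cell types of the region, so that fewer cells of a type and less RNA per cell cannot be told apart.

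Neuropeptides are made as larger precursors, cut and modified on the way into dense-core granules, and released to act on G protein-coupled receptors. In the spinal cord many of them mark classes of dorsal horn interneurons, and some are also carried by sensory fibres or descending axons, whose transcripts are made in cell bodies outside the cord. Enkephalins, dynorphins and somatostatin are mostly known to dampen the neurons they act on, while substance P excites cells that carry its receptor.

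The tissue bore the marks of cervical cord, with values for 4 of 4 cervical Hox genes and for 0 of 4 lumbar Hox genes. The cervical ones summed to between 47.8 and 69.4 normalized CPM over all animals. Of 7 dorsal horn markers 4 had values, and Lmx1b, Tlx3 and Mafa were absent. Motor neuron markers had values for 5 of 5, and their sums varied widely between animals of one group. They ran from 67.9 to 262.6 normalized CPM in sham animals, from 31.2 to 311.4 at 4 dpi and from 114.5 to 355.6 at 14 dpi. Ribosomal RNA and pituitary transcripts moved between animals. The summed value of 3 genes that carry ribosomal sequence lay between 67634 and 105851 normalized CPM in sham animals and between 104531 and 1397989 at 28 dpi. The 4 pituitary markers with values summed to between 2.5 and 4.3 normalized CPM in sham animals and reached 31.3 in a 7 dpi animal. The sum over all genes ran from 714597 to 2256910 per animal, and 2 animals lay over 2000000, 28 dpi A3-3 and 14 dpi A6-3.

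The opioid members can be told apart by the peptides their coding sequence holds. Penk (chromosome 4, 4133531 to 4138819, minus strand, mm10) codes for 268 residues and Pdyn (chromosome 2, 129686565 to 129699844, minus strand) for 248. The runs that code for the shared enkephalin core are shown because they are the part of each transcript that becomes opioid peptide. The capitals mark the fifth codon, ATG for Met-enkephalin and CTG or TTG for Leu-enkephalin, and positions are those of mm10. Each is written 5′ to 3′ along the minus strand, which is the coding one.
Penk copy 1, chr4:4134334-4134348: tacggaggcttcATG
Penk copy 3, chr4:4134226-4134240: tatggcggcttcATG
Penk copy 6, chr4:4133941-4133955: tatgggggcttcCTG
Pdyn copy 1, chr2:129688238-129688252: tatggcggctttTTG
Pdyn copy 2, chr2:129688130-129688144: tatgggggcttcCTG
Penk held 7 such copies, 6 with the Met codon and 1 with the Leu codon, and Pdyn held 3, all with a Leu codon. Copy 6 of Penk and copy 2 of Pdyn were the same 15 bases, the only identical runs between the genes. None of the other 7 members held a copy. An exon of Penk overlaps A830012C17Rik on the opposite strand in GENCODE, and the library kit does not mark strand, so reads from that stretch cannot be told apart.

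Of the 9 members, 8 had a promoter in the RefSeq table of GRCm38.p6, each 300 bases long and ending 50 bases after a transcription start. All of them were searched on both strands for the cAMP response element TGACGTCA, the palindromic site of the factor CREB, which is known from studies of the Sst gene. Sst was the 1 member that held it, in a set of 32851 promoters of the same length of which 1.79% held it. In the 60 bases shown the element stands in capitals, and its first base lies 48 bases before the start.
Sst promoter, chr16:23890859-23890918, minus strand: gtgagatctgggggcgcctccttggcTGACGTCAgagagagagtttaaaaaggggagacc
The shorter core TGACG, which is contained in the longer element, stood in 20.8% of all promoters. Counted on both strands, it stood 2 times each in those of Tac1 and Sst and 1 time each in those of Cck, Nts and Gal. It stood 1 time in both of Adcyap1 and 0 times in those of Pdyn and Npy. The 2 counts of Sst are the element shown, read once on each strand, while Tac1 held no such element. A match is a run of letters and not a measured binding site.

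In sham animals Penk was the most abundant member and Pdyn the least when the values were divided by transcript length. Penk reached 24.1 ± 3.1 normalized CPM per kilobase (SD, n = 5) and Sst 12.6 ± 2.66, followed by Cck with 4.73 ± 0.983 and Tac1 with 3.02 ± 0.447. These 4 levels did not overlap from one gene to the next. Nts (1.84), Adcyap1 (1.51), Npy (1.02), Gal (0.66) and Pdyn (0.461) formed the lower end, and each of them overlapped with its neighbours in that order. At 28 dpi the order of the 9 means was the same, with 16.9 for Penk, 7.71 for Sst and 3 for Cck per kilobase, and the ranges of Penk and Sst then overlapped. Pdyn, Npy and Gal averaged under 1 normalized CPM over all animals, close to the rounding step of 0.1, and no fine difference can be read from them.

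**Figure D1:**
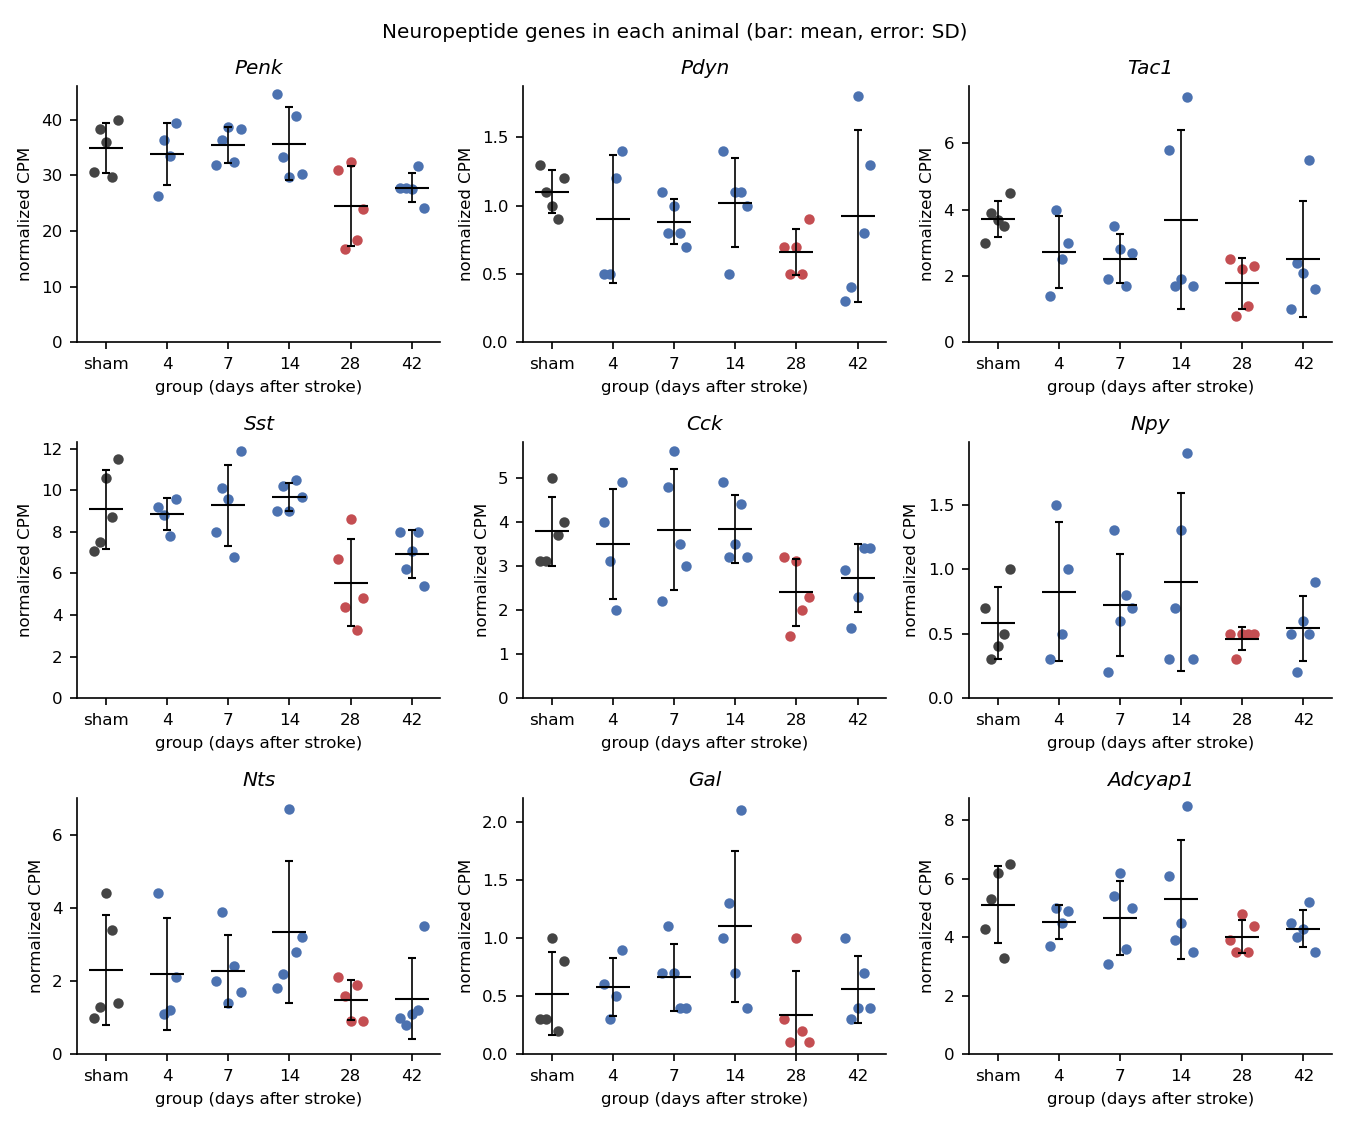
Normalized CPM (vertical axis, linear) of the 9 members in every animal of the 6 groups (horizontal axis), with the group mean as a bar and the SD as an error bar, cut off at 0 for Gal at 28 dpi. The 28 dpi animals (red) of Tac1 all lie below the sham animals (dark grey), and those of Sst all lie below the 14 dpi animals.

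The change was found at 28 dpi. Tac1, Penk and Sst were downregulated against sham, all 9 members had a mean difference below 0, and none passed the test at 4, 7, 14 or 42 dpi, where 0.106%, 0.0294%, 0.00588% and 0.0235% of all genes passed. The 3 called members compare with 13% of all genes called lower at 28 dpi, and the 9 negative differences with 50.7% of all genes. With log2 Rn18s-rs5, a measure of ribosomal RNA, as a covariate 6 of the 9 differences were below 0 (50.1% of all genes) and 0 passed in limma, beside 0% of all genes. At an unadjusted p under 0.05 there were then 2 members, beside 22.1% of all genes. The median difference over the members was -0.47 on the log2 scale, beside -0.0048 over all genes. Differences are in log2(value + 0.5), and a call is an adjusted p under 0.05 over all genes in limma. At an unadjusted p under 0.05 there were 0 members at 4 dpi (5.14% of all genes), 0 at 7 dpi (5.84%), 1 at 14 dpi (11.6%) and 2 at 42 dpi (14.8%). The p-values measure the spread between these animals.

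Penk, the precursor of the enkephalins, measured 30.7, 38.3, 36.1, 29.8 and 40.0 normalized CPM in the sham animals A11-1, A11-4, A12-1, A12-2 and A12-3. At 28 dpi it measured 31.0, 16.7, 32.4, 18.3 and 24.0 in A3-1, A3-3, A4-1, A4-3 and A4-4, the order used for both groups throughout. A3-3, A4-3 and A4-4 lay below every sham animal and the other two lay within the sham range. The log2 difference was -0.55 ± 0.14 (SE, 95% interval -0.84 to -0.25, adjusted p = 0.00847), and the exact two-sided permutation test gave p = 0.0476, where 0.00794 is the smallest p that 5 against 5 animals allow. At 42 dpi the values were 27.8, 27.8, 27.6, 31.7 and 24.2. There 4 of 5 animals lay below the sham group, by -0.32 ± 0.14 (adjusted p = 0.289, limma; exact permutation p = 0.0238). Penk averaged 33.9 at 4 dpi, 35.5 at 7 dpi and 35.7 at 14 dpi, beside a sham mean of 35.0.

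Pdyn, the precursor of the dynorphins, was low. Its 5 sham values ran from 0.9 to 1.3 normalized CPM and its 28 dpi values from 0.5 to 0.9. At 28 dpi 4 of 5 animals lay below all sham animals, with a difference of -0.47 ± 0.23 and an adjusted p of 0.133, and the exact permutation test gave p = 0.0159. Among the opioid receptors Oprm1, the mu receptor, rose at 28 dpi. It measured 28.6, 28.3, 19.5, 24.7 and 23.9 in sham animals and 27.0, 31.4, 26.4, 35.4 and 40.1 at 28 dpi. The groups overlapped, with 3 of 5 animals above all sham animals (0.35 ± 0.13, adjusted p = 0.0415). With every animal rescaled to the same sum, which moved the median of all genes by -0.72, it stood at -0.43 (adjusted p = 0.14), above that median. The call was lost without any 1 of 6 animals, sham A12-1, A12-2 or A12-3 or 28 dpi A3-3, A4-3 or A4-4, with adjusted p up to 0.153 (0.26, without A12-1). Oprk1, the dynorphin receptor, differed by -0.01 ± 0.12 (adjusted p = 0.97), and Oprd1, the delta receptor, by 0.10 ± 0.10 (adjusted p = 0.498).

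Tac1, the precursor of substance P and neurokinin A, had the largest mean difference of the members. It measured 3.0, 3.9, 3.7, 3.5 and 4.5 normalized CPM in sham animals and 2.5, 0.8, 2.2, 1.1 and 2.3 at 28 dpi. All 5 animals at 28 dpi lay below all sham animals, a pattern that 3.75% of all genes showed. The difference was -0.96 ± 0.34 (95% interval -1.65 to -0.26, adjusted p = 0.0385), and the exact permutation p of 0.00794 was the smallest possible. The call was lost without A3-3 (-0.77, adjusted p = 0.13), A4-3 (-0.85, 0.096) or any 1 of 4 sham animals (-0.97 to -0.89, 0.0558 to 0.0831), and without the mean-variance trend of the fit (0.0523). Tac1 was also uneven at other times. At 14 dpi it measured 5.8, 1.7, 1.9, 7.4 and 1.7 in A5-1, A5-3, A5-4, A6-2 and A6-3, with 2 animals above and 3 below all sham animals. At 7 dpi it measured 1.9, 3.5, 2.8, 1.7 and 2.7, and 4 of 5 animals lay below all sham animals (-0.51 ± 0.34, adjusted p = 0.884, limma; exact permutation p = 0.0238).

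Tacr1, the substance P receptor, was higher at 28 dpi on the deposited scale. It measured 5.7, 7.2, 5.9, 6.4 and 6.4 normalized CPM in sham animals and 8.9, 9.5, 9.3, 8.7 and 8.9 at 28 dpi. The groups did not overlap, as for 6.15% of all genes in that direction, and the difference was 0.49 ± 0.11 (adjusted p = 0.00337). Rescaling to the same sum moved the median of all genes by -0.72, and Tacr1 then stood at -0.25 (adjusted p = 0.415), above that median. With log2 Rn18s-rs5 as a covariate the difference was 0.54 ± 0.14 and no longer passed (adjusted p = 0.0567). Tacr3, the neurokinin B receptor, differed by -0.24 ± 0.15 (adjusted p = 0.246).

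Sst, the precursor of somatostatin, measured 7.1, 7.5, 10.6, 8.7 and 11.5 normalized CPM in sham animals and 6.7, 4.4, 8.6, 3.3 and 4.8 at 28 dpi. Only A4-1 reached the sham range. The difference was -0.71 ± 0.17 (95% interval -1.05 to -0.36, adjusted p = 0.00499; exact permutation p = 0.0317). At 14 dpi the values were 9.0, 10.2, 9.0, 10.5 and 9.7 and at 42 dpi 8.0, 6.2, 7.1, 8.0 and 5.4. The 14 dpi animals were the tightest group (SD 0.683) and lay inside the sham range, while the 42 dpi mean of 6.94 stood between the sham and 28 dpi means, at -0.36 ± 0.17 against sham (adjusted p = 0.326). Its receptors Sstr1, Sstr2 and Sstr3 differed from sham at 28 dpi by -0.41 ± 0.23, 0.05 ± 0.21 and -0.01 ± 0.16, and none of them passed.

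Cck, the precursor of cholecystokinin, came close to the limit. It measured 3.1, 3.1, 5.0, 3.7 and 4.0 normalized CPM in sham animals and 3.2, 1.4, 3.1, 2.0 and 2.3 at 28 dpi. A3-1 and A4-1 touched the lower end of the sham values and the other 3 lay below them. The difference of -0.59 ± 0.22 had an adjusted p of 0.0523 and an exact permutation p of 0.0476. At 42 dpi it was -0.43 ± 0.22 (adjusted p = 0.373). Its receptor Cckbr differed by 0.05 ± 0.10 at 28 dpi (adjusted p = 0.755).

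The remaining members did not pass against sham. Nts, the precursor of neurotensin, was scattered in the sham group, from 1.0 to 4.4 normalized CPM, and ran from 0.9 to 2.1 at 28 dpi (-0.39 ± 0.35, adjusted p = 0.436). Its receptor Ntsr2 differed by -0.20 ± 0.10 (adjusted p = 0.13). Adcyap1, which codes for PACAP, ran from 3.3 to 6.5 in sham animals and from 3.5 to 4.8 at 28 dpi (-0.29 ± 0.19, adjusted p = 0.268). Its receptor Adcyap1r1 was higher at 28 dpi by 0.15 ± 0.06 with 2 of 5 animals above all sham animals (adjusted p = 0.04995), but by 0.027 ± 0.043 after a correction for transcript length and GC content (adjusted p = 0.676). Gal, the precursor of galanin, differed by -0.31 ± 0.28 and Npy, the precursor of neuropeptide Y, by -0.14 ± 0.28, and all 5 of their 28 dpi animals lay between 0.1 and 1.0 normalized CPM. Npy1r, Npy2r and Npy5r, the receptors of neuropeptide Y, differed by 0.23 ± 0.19, -0.11 ± 0.15 and -0.35 ± 0.13 and did not pass.

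**Figure D2:**
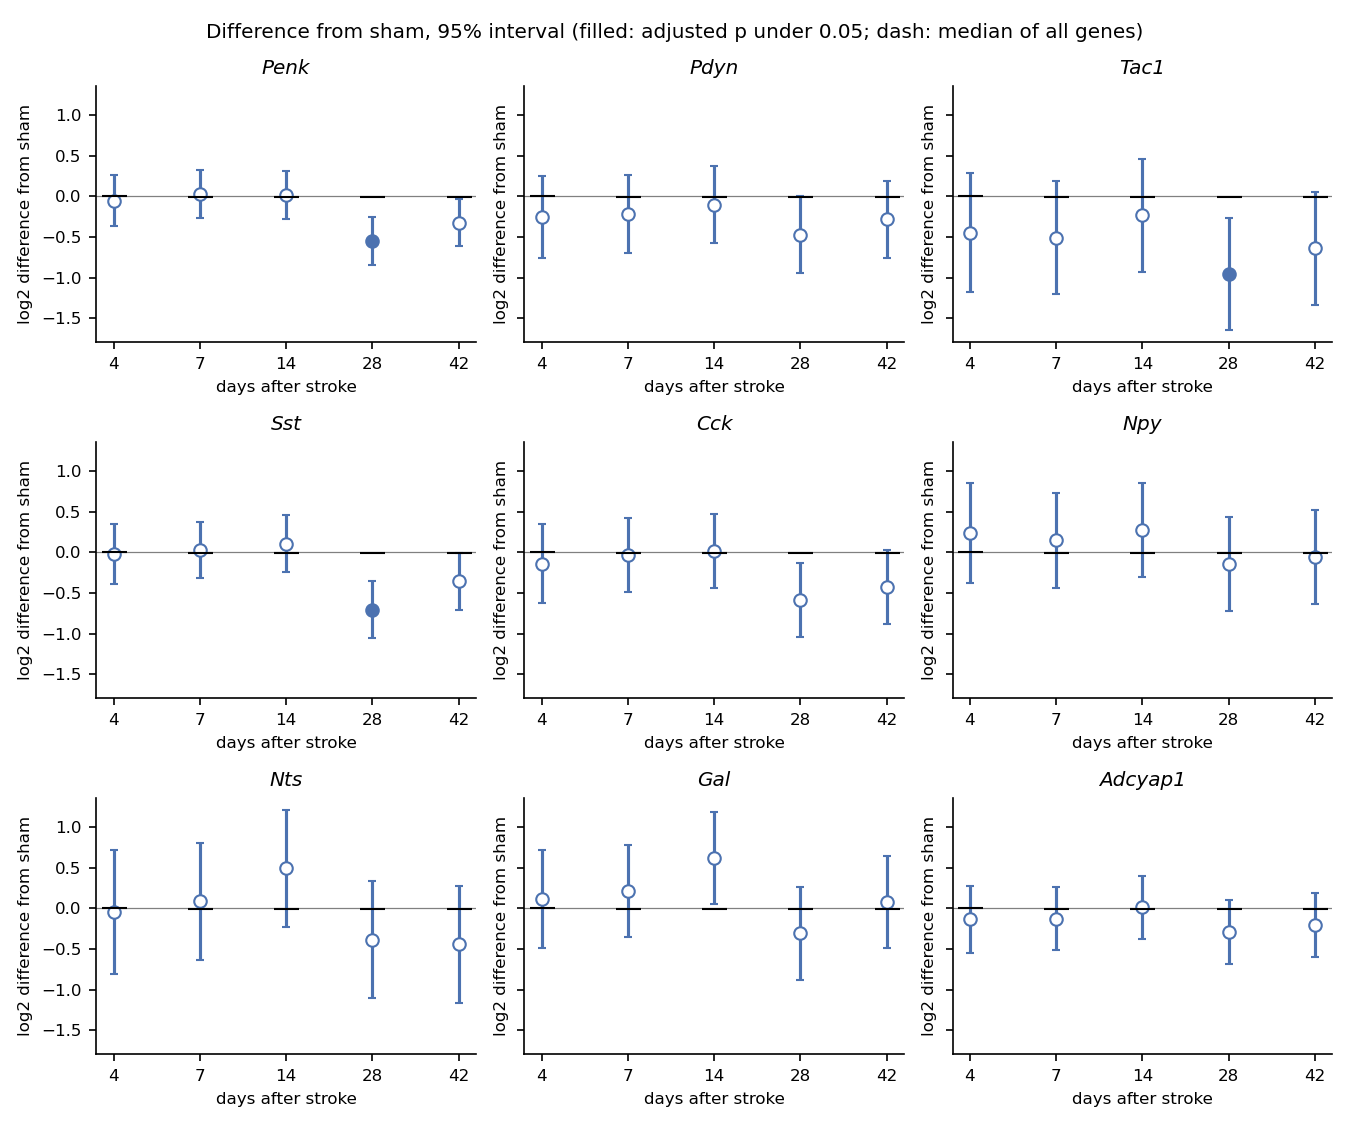
Log2 difference from sham (vertical axis) of the 9 members at 4, 7, 14, 28 and 42 days after stroke (horizontal axis) with the 95% interval, filled where the adjusted p was under 0.05. Penk, Tac1 and Sst are filled at 28 days and nowhere else, and the dash marks the median of all genes, which stayed near 0.

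To ask whether the time points themselves differed, 28 dpi was compared with its neighbours. Against 14 dpi 5 members were lower, Penk (-0.57 ± 0.14, adjusted p = 0.00235), Sst (-0.81 ± 0.17, 0.000427), Cck (-0.61 ± 0.22, 0.0283), Nts (-0.88 ± 0.35, 0.0434) and Gal (-0.93 ± 0.28, 0.00817). The share of all genes called lower in that comparison was 21.9%. The calls of Cck and Nts were both lost without 14 dpi A6-2 (adjusted p = 0.0654 and 0.0601) or 28 dpi A3-3 (0.108 and 0.0594). Both were also lost after the correction for length and GC content (0.0717 and 0.0796). Nts lost its call too without 14 dpi A5-4 (-0.62, adjusted p = 0.165) or A6-3 (0.0664), or without 28 dpi A4-1 (0.0961) or A4-4 (0.103). The same held with a score of the dorsal horn markers as a covariate (0.154), without the mean-variance trend (0.0559) and with median centring (0.0504). Cck lost its call too without 14 dpi A5-1 (0.0751) or 28 dpi A4-3 (0.0626), or with log2 Rn18s-rs5 as a covariate (0.0564). With the same sum Penk (-0.82, adjusted p = 0.0587) and Cck (-0.79, 0.0821) lost theirs, while Sst and Gal were called in every setting tried for this comparison that held them. All 5 Sst values at 28 dpi lay below all 14 dpi values, as for 11.8% of all genes, and the exact permutation p was 0.00794. For Nts and Gal the 14 dpi group was the high one, with 1.8, 2.2, 6.7, 2.8 and 3.2 normalized CPM for Nts and 1.0, 1.3, 0.7, 2.1 and 0.4 for Gal. Gal at 14 dpi exceeded sham by 0.62 ± 0.28 without passing (adjusted p = 0.407). Tac1 against 14 dpi was -0.72 ± 0.34 (adjusted p = 0.0841).

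From 28 to 42 dpi no member passed the test. In limma 0 of 9 passed and 1 had an unadjusted p under 0.05, beside 1.94% of all genes called and 21.1% at that unadjusted p. At 42 dpi 8 of 9 members still had a mean below sham, beside 51.6% of all genes, and their median difference was -0.32. None of them passed, and Penk and Sst had unadjusted p of 0.0337 and 0.0457. With all 24 stroke animals as 1 group 0 of 9 members passed, 1 of them had an unadjusted p under 0.05, and 0 of all genes (0%) passed in limma, with 8.63% of them at an unadjusted p under 0.05. The moderated F test over the 6 groups called Penk (adjusted p = 0.00832) and Sst (0.00299), 2 of 9 members beside 31.6% of all genes.

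The genes that serve neuropeptides were read from lists of receptors, of processing enzymes and granule proteins, and of other peptide precursors. Of 30 receptor genes 21 had values, and at 28 dpi 3 rose (Tacr1, Oprm1 and Adcyap1r1) and none fell, beside 11.9% of all genes called higher and 13% called lower, with a median difference of 0.05. When rescaled to the same sum all 3 had negative differences (-0.25, -0.43 and -0.64), above the median of -0.72 over all genes. On that scale 12 of the 21 receptors were called lower and 0 higher in limma, beside 66% and 0.206% of all genes, with a median of -0.67. With log2 Rn18s-rs5 as a covariate 0 of the 3 passed in limma (0.54, 0.31 and 0.17, with adjusted p of 0.0567, 0.25 and 0.17). Tacr1 was called in all 29 fits that left out 1 animal each, and Adcyap1r1 (0.15 as reported) in 5 of the 29, with differences of 0.10 to 0.18 and adjusted p up to 0.209, without sham A12-1. At every other time 0 of the 21 passed in limma, with 0 to 3 at an unadjusted p under 0.05. Sort1, Adcyap1r1 and Ntsr2 had the highest values in sham animals, with means of 264, 137 and 59.6 normalized CPM.

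Among processing enzymes and granule proteins 5 of 23 fell and 1 rose at 28 dpi, beside 13% and 11.9% of all genes, with a median of -0.05. Cpe, the carboxypeptidase that trims cut precursors, measured 388.6, 436.0, 518.3, 450.6 and 480.0 normalized CPM in sham animals and 413.5, 324.8, 386.0, 311.9 and 340.5 at 28 dpi. All but A3-1 lay below the sham group (-0.36 ± 0.07, adjusted p = 0.00171). Scg5, which codes for the chaperone of the convertase PC2, fell by 0.51 on the log2 scale (adjusted p = 0.0044) and Scg2, a granin, fell by 0.47 (0.00353). Chgb, another granin, fell by 0.33 (0.00775) and Scg3, which helps load granules, by 0.17 (0.0269). Furin, a convertase of the secretory pathway, rose by 0.25 (0.0471), and stood at -0.51 when rescaled to the same sum, beside -0.72 for the median of all genes. With log2 Rn18s-rs5 as a covariate none of these 6 passed (adjusted p from 0.0597 for Cpe to 0.171 for Furin). With 1 animal left out in turn Cpe, Scg5, Scg2 and Chgb were called in all 29 fits and Furin in 11, while Scg3 was not called without sham A12-1 or A12-3 or 28 dpi A3-3 or A4-3 (adjusted p up to 0.107). Cadps, Cpe and Chga were the most abundant of the list in sham animals (463, 455 and 209 normalized CPM). The convertase genes Pcsk1 (-0.34 ± 0.13, adjusted p = 0.051) and Pcsk2 (-0.01 ± 0.05, 0.898) and the amidating enzyme gene Pam (-0.05 ± 0.07, 0.655) did not pass. After the correction for length and GC content Furin no longer passed (0.19 ± 0.08, adjusted p = 0.0852) and Pcsk1 did (-0.45 ± 0.13, 0.0128).

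Vgf, a precursor of several peptides, was the 1 gene of these 3 lists called at 4, 7 or 14 dpi. It measured 45.3, 48.3, 77.5, 49.1 and 56.5 normalized CPM in sham animals and 31.2, 31.5, 30.1 and 30.3 at 4 dpi. All 4 animals lay below all sham animals, as for 0.612% of all genes. The difference was -0.81 ± 0.14 (adjusted p = 0.00915), and 0.0177% of all genes were called lower at 4 dpi. At 7 dpi it was lower by -0.67 ± 0.13 (adjusted p = 0.0496), where 0.0294% of all genes were called lower. With 1 animal left out in turn the 4 dpi call held in 29 of 29 fits and the 7 dpi call in 5. At 28 dpi it measured 39.3 to 54.4 and did not pass (-0.22 ± 0.13).

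Of 48 other peptide genes 14 had values. At 28 dpi 12 of these 14 had a mean below sham, beside 50.7% of all genes, with a median of -0.26. In limma 1 was called lower, beside 13% of all genes. This was Nucb2, the precursor of nesfatin, which fell from 5.68 ± 0.217 (SD, n = 5) to 4.38 ± 0.642 normalized CPM with no overlap, as for 3.75% of all genes (-0.35 ± 0.11, adjusted p = 0.0207). It did not pass without 28 dpi A4-3 (-0.27, adjusted p = 0.0784) or sham A12-1 (-0.34, 0.0515), or with log2 Rn18s-rs5 as a covariate (-0.32, 0.176). Apln (-0.20 ± 0.09), Agt (-0.25 ± 0.11) and Calca (-0.48 ± 0.38), the most abundant of this list in sham animals, did not pass.

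**Figure D3:**
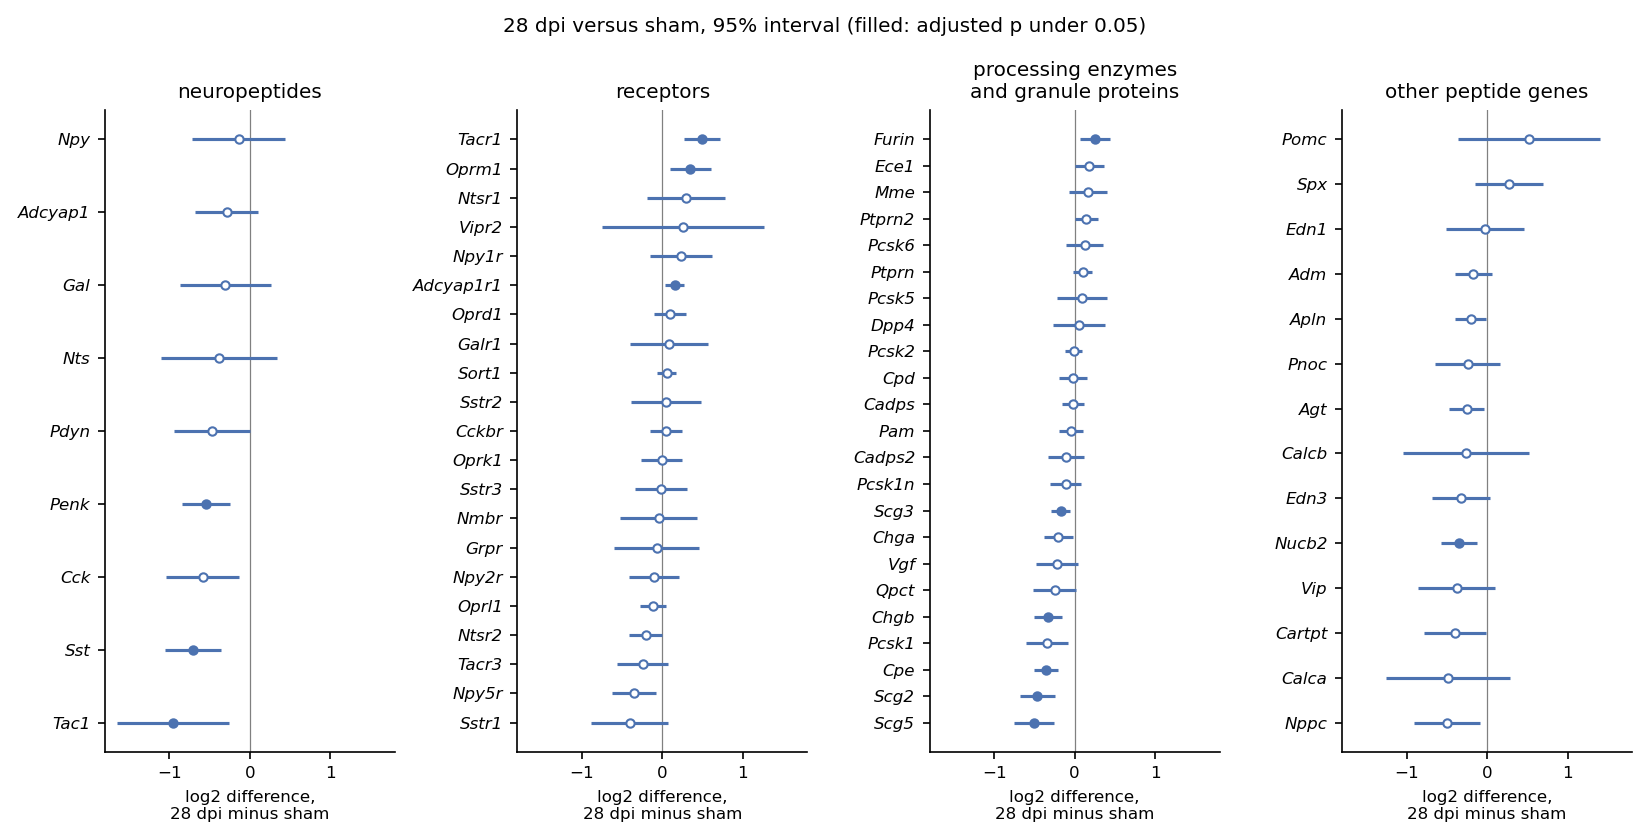
Log2 difference between 28 dpi and sham (horizontal axis, 95% interval) for every gene with values in the 4 lists (rows), filled where the adjusted p was under 0.05. The members lie to the left of 0, the receptors are spread around it with Tacr1 at 0.49, and Scg5, Scg2, Cpe, Chgb and Scg3 lie to the left among the granule genes.

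Some markers of cell types were also called at 28 dpi, where 13% of all genes were called lower and 11.9% higher in limma. At an unadjusted p under 0.05 that share was 38.5% of all genes. Of 6 neuron markers 1 fell (Snap25, -0.30 ± 0.09, adjusted p = 0.016) and the median was -0.16. Of 6 inhibitory neuron markers Slc6a5 (0.30 ± 0.10, adjusted p = 0.0339) and Pax2 (0.69 ± 0.22, 0.0217) rose. The median of the 6 was -0.0034 and 3 were below 0, among them Gad1 (-0.15 ± 0.13, adjusted p = 0.403) and Gad2 (-0.15 ± 0.14, 0.435), which code for the enzymes that make GABA. Dorsal horn markers summed to between 28.5 and 36.9 normalized CPM in sham animals and between 37 and 47.6 at 28 dpi, with 0 of 4 passing in limma and 3 with an unadjusted p under 0.05. With the dorsal horn score as a covariate Tac1 (-1.12), Penk and Sst remained called. All 4 oligodendrocyte markers had a mean below sham and an unadjusted p under 0.05, with a median of -0.38, and 2 of them fell, among them Mog (-0.44 ± 0.10). Astrocyte markers fell in 2 (Aqp4 and Aldh1l1) and rose in 1 (Slc1a2), and no motor neuron or pituitary marker passed. Of 4 microglia markers 1 rose (Cx3cr1) and 2 were below 0, with a median of 0.10. Of 2 excitatory neuron markers with values Slc17a8 rose (0.53 ± 0.16), while Slc17a6, the more abundant at 185 normalized CPM in sham animals and 155 at 28 dpi, did not pass (-0.26 ± 0.10, adjusted p = 0.0555). Without sham A12-1 the calls of Snap25, Slc6a5, Pax2, Slc17a8, Slc1a2, Cx3cr1 and Aldh1l1 were lost (adjusted p from 0.0506 to 0.114). Of the markers that rose, Slc6a5 (-0.49), Pax2 (-0.0058), Slc1a2 (-0.50), Cx3cr1 (-0.43) and Slc17a8 (0.0027) all stood above the median of all genes, -0.72, when rescaled to the same sum. The part of these cell types in the members' values was not tested further.

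Ribosomal RNA was high at 28 dpi and at other times. All 3 ribosomal genes rose at 28 dpi, by 2.85 (Rn18s-rs5), 3.50 (AY036118) and 2.26 (Lars2) on the log2 scale. Their median difference was 1.86 at 14 dpi and 2.41 at 42 dpi, each with 0 of 3 passing in limma and 3 at an unadjusted p under 0.05, while the members' medians were 0.02 and -0.32. A3-3, the animal with the lowest Penk and Tac1, also had the highest sum of all values. With log2 Rn18s-rs5 as a covariate 0 of 9 members passed at 28 dpi, and the SDEGs (genes with an adjusted p under 0.05 and a fold above 1.5) numbered 0 in place of 789, or 4.64% of all genes. The differences were then -0.42 for Tac1, -0.37 for Penk and -0.54 for Sst, and the part of ribosomal RNA in them was not tested further. A4-1, whose Rn18s-rs5 value of 44755 lay within the sham range of 30321 to 52929, had Penk and Sst within the sham range and Tac1 below it. A3-1, with a higher Rn18s-rs5 value of 417971, also had Penk (31.0) within the sham range, with Sst (6.7) and Tac1 (2.5) below it. The 14 dpi animal A6-3, with the highest Rn18s-rs5 value of all (817780), measured 30.3 for Penk, 9.7 for Sst and 1.7 for Tac1. Without both animals whose values summed to over 2000000 Penk (-0.42 ± 0.14, adjusted p = 0.0427) and Sst (-0.65 ± 0.18, 0.0229) passed and Tac1 did not (-0.77 ± 0.34, 0.122), beside 6.57% of all genes called lower.

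Transcript length moved too. The members' longest coding transcripts were short, with a median of 1230 bases beside 3022 over all genes. Of the 2867 genes under 1500 bases 20.3% were called lower at 28 dpi, compared with 2.58% of the 3337 genes over 5000 bases. The slope of an animal's log2 values on log10 length lay between -0.25 and 0.23 in sham animals and between 0.01 and 0.45 at 28 dpi. It was 0.34, 0.35 and 0.45 in A3-3, A4-3 and A4-4, the 28 dpi animals with Penk below all sham animals. In A3-1 and A4-1, with Penk within the sham range, it was 0.01 and 0.03. The part of length in the members' values was not tested further. After a correction of each animal for length and GC content the same 3 members passed, with -0.89 ± 0.33 for Tac1 (adjusted p = 0.0434), -0.49 ± 0.13 for Penk (0.0065) and -0.64 ± 0.14 for Sst (0.00206), beside 19% of all genes called lower.

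**Figure D4:**
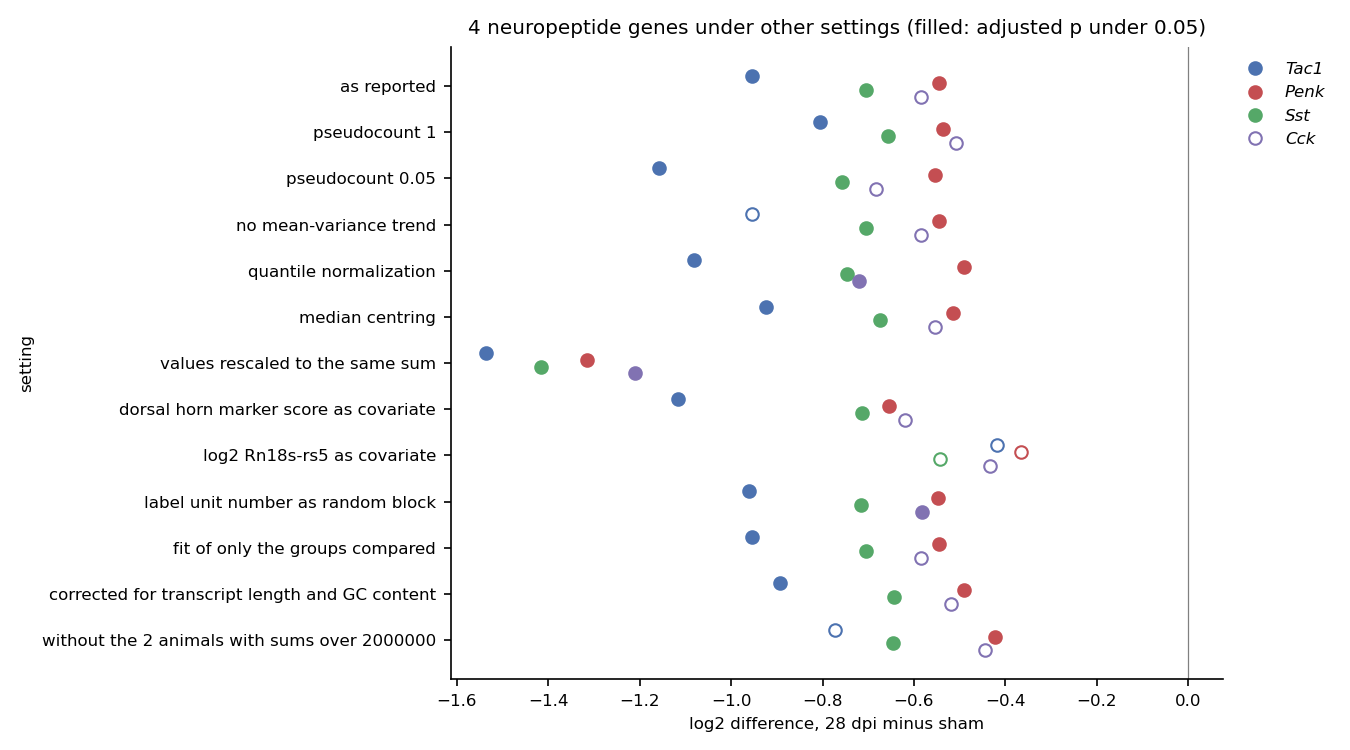
Log2 difference between 28 dpi and sham (horizontal axis) of Tac1, Penk, Sst and Cck (colours) under the settings listed on the vertical axis, filled where the adjusted p was under 0.05. The points stay below 0 in every setting shown, and all 4 are open with log2 Rn18s-rs5 as a covariate.

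To see which members varied together between animals of one group, group means were subtracted and the 36 pairs compared over the 29 animals. Of these, 11 pairs passed after adjustment over the 36, all with positive r, and 29 of 36 r were positive (median 0.31). The lowest r of these 11 was 0.483, which 3.92% of the pairs among all 16995 genes reached, and 49.9% of those pairs had a positive r. Without the 2 animals farthest from the median 7 pairs passed. Tac1 and Penk were the closest pair (r = 0.76, adjusted p = 0.00024; rho = 0.83, adjusted p = 0.00012; 100000 permutations), with an r of 0.79 once the 2 animals farthest from the Tac1 median were dropped. Adcyap1 varied with both, with r of 0.73 for Tac1 (rho = 0.75, 0.65 without 2 animals) and 0.70 for Penk (rho = 0.78, 0.72 without 2 animals), both with an adjusted permutation p of 0.00024. Penk and Sst had an r of 0.66 (adjusted permutation p = 0.013; rho = 0.62, adjusted p = 0.0112), and 0.57 without 2 animals. Nts stood outside this pattern, with r of -0.42 for Penk (adjusted permutation p = 0.0719; rho = -0.42, adjusted p = 0.095). Pdyn and Npy had no pair that passed, and their values lie near the rounding step.

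**Figure D5:**
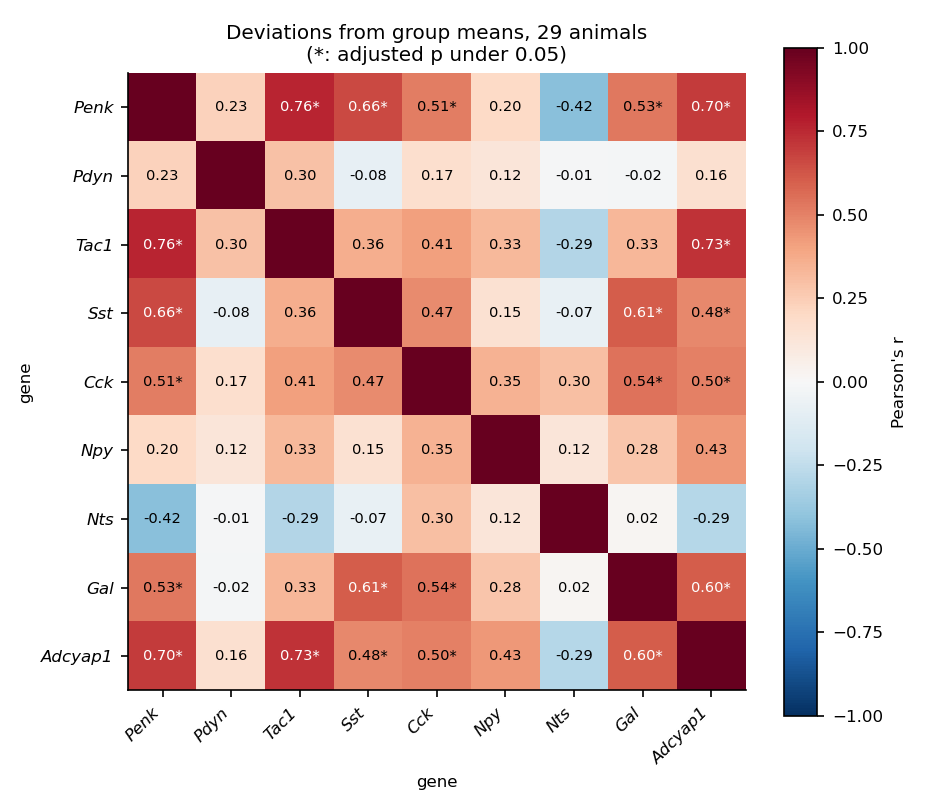
Pearson's r (colour and number) between the 9 members (rows and columns) of log2 values with group means subtracted, over 29 animals, with an asterisk at an adjusted p under 0.05. All asterisks lie between Penk, Tac1, Adcyap1, Sst, Cck and Gal, but Tac1 has none with Sst, Cck or Gal and Sst none with Cck. Nts, Pdyn and Npy have no asterisk, with Nts and Penk lowest at -0.42.

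Within groups the dorsal horn score was related to 0 of 9 members after adjustment over 9 and to 0 at an unadjusted permutation p under 0.05 (r from -0.30 for Nts to 0.36 for Gal). Rn18s-rs5 was related to 0 of 9 after adjustment, with 8 negative r, beside 54.7% of all genes, and Adcyap1 at r = -0.48 (adjusted permutation p = 0.23; rho = -0.47, adjusted p = 0.165; r = -0.45 without 2 animals). The length slope was related to 3 of 9, Sst (r = -0.68, adjusted permutation p = 0.00507; rho = -0.73, adjusted p = 0.00189), Cck (r = -0.59, 0.00507; rho = -0.62, 0.00789) and Gal (r = -0.63, 0.00297; rho = -0.60, 0.00789). The r of all 3 lay at or below -0.587, as for 11.5% of all genes and 31.9% of the genes under 1500 bases. Without the 2 animals farthest from the median these r were -0.63, -0.53 and -0.58. Tac1 had an r of -0.11 with the slope (adjusted permutation p = 0.521; rho = -0.15).

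The genes with the most similar deviations were sought among the 11147 with a mean of at least 5 normalized CPM, over the 29 animals, with no test. Penk was closest to Nsg2 (r = 0.95), Hpca (0.89) and Pgrmc1 (0.87), and Tac1 to Nsg2 (0.79), Penk (0.76) and Necab1 (0.76). Sst was closest to Rpl36a (0.85), Psmd3 (0.85) and Camk2n2 (0.85), and Cck to Apex1 (0.83), Mgst1 (0.79) and Ptpn2 (0.76). Nsg2 thus led for both Penk and Tac1. Nts was closest to Hadha (0.88), Rgs4 (0.88) and Gfra1 (0.88), and Adcyap1 to Celf4 (0.79) and Vopp1 (0.77). For the low members the leading genes were Ankrd42, Cdon and Kit for Pdyn (0.62 to 0.69), Mtfr1, F8a and Pros1 for Npy (0.63 to 0.75) and Fabp7, Lime1 and H2-K1 for Gal (0.741 to 0.745).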

How the data were processed

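RNA was depleted of ribosomal RNA and sequenced by the authors, who ran Salmon against mouse transcripts (mm10), summarised the result per gene with Tximport and normalized them with edgeR 3.14.0 under R 3.4.1, after removing genes with low values. The deposited score of a gene is this normalized CPM rounded to 0.1. Depth is unknown, whole reads could not be recovered, so precision rests on how far animals of a group differ and on rounding. Of 30 labelled animals 29 had values, and 4 dpi A9-3 was not analysed here. The 30 columns that hold the authors' own comparisons (fold changes and p-values) were not used.

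Values were analysed as log2(value + 0.5) in 1 limma 3.58.1 fit over 6 groups (R 4.3.3, mean-variance trend, Benjamini-Hochberg adjustment over 16995 genes). Single values were compared with exact two-sided permutation tests (scipy 1.17.1, numpy 2.4.6, pandas 2.3.3, Python 3.11.15). The method was tested on simulated data. Lengths came from GENCODE M21.

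Named genes are all members, up to 4 called genes and the 3 most abundant of each list, receptors of members, the 3 genes most similar to each member, and tissue markers; Scg3, Furin, Pcsk1, Pcsk2 and Pam were added after their values were seen. Some genes that this rule names are not reported here. The members and lists were chosen with earlier results of these data known. Alternatives were pseudocounts of 1 and 0.05, no trend, quantile normalization, the same sum, median centring, a mean of at least 1, covariates, the label unit as a random block, fits of only the groups compared, fold limits, and leaving out each animal. The correction for length and GC content, the fits without the 2 animals with the highest sums and those without each pair of 28 dpi animals were added after the values were seen.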

Additional observations from a re-analysis of the deposited data

Results flagged for a closer look

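Of 54 groups of values (9 members in 6 groups), 4 held an animal far from the others of its group by Dixon's test, where chance flags about 1 group in 20. Npy at 28 dpi was 0.3 normalized CPM in A3-3 beside 0.5 in the other 4 animals, a gap of 2 rounding steps. Nts at 14 dpi was 6.7 in A5-4, with 3.2 as the next value, and Nts at 42 dpi was 3.5 in A3-4, with 1.2 as the next. Gal at 28 dpi was 1.0 in A4-1, with 0.3 as the next.

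The difference from sham at 28 dpi departed from that at 14 dpi in 5 members in limma, by -0.57 for Penk, -0.81 for Sst, -0.61 for Cck, -0.88 for Nts and -0.93 for Gal on the log2 scale, beside 21.9% of all genes called lower. The calls of Cck and Nts were lost without 14 dpi A6-2, without 28 dpi A3-3 and after the correction for length and GC content. Those of Penk and Cck were lost with the same sum. Nts also lost its call without 14 dpi A5-4 (-0.62, adjusted p = 0.165), and both Cck and Nts lost theirs in further settings given above. In the comparison of 42 with 28 dpi no member differed in that test.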

How the results depend on the processing

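Under the alternatives Penk and Sst stayed below sham at 28 dpi in all of them, were called in 29 of 29 fits that left out 1 animal, and lost the call with Rn18s-rs5 as a covariate. Tac1 was called in 23 of those 29 fits and Cck in 8, and Tac1 also lost its call without the trend (adjusted p = 0.0523). With any 2 of the 5 animals at 28 dpi left out, in 10 ways, Tac1 was called in 3, Penk in 7, Sst in 7 and Cck in 2. Without A3-3 and A4-3, A3-3 and A4-4, or A4-3 and A4-4, 0 members were called. The shares of all genes called lower were then 1.49%, 1.95% and 4.22%. Penk stood at -0.26 and Sst at -0.42 without A3-3 and A4-3. Depth is unknown, and values near the rounding step limit Pdyn, Npy and Gal. The causes of the changes given here were not tested.

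SDEGs at 28 dpi, 789 in the main limma fit, numbered 466 with a pseudocount of 1, 416 without the 2 animals with the highest sums and 4230 with no fold limit. They numbered 0 with the Rn18s-rs5 covariate and 11056 with values rescaled to the same sum, which moved the median of all genes by -0.72. Counts given as reported are those of this main fit and not those of the paper. The paper states its own fold limit on the log2 scale, so its counts of SDEGs are not comparable. At 7 dpi, with 5 as reported, they numbered 1 with a pseudocount of 0.05, no trend, quantile normalization, median centring, the dorsal horn covariate or only the groups compared, 2 without the 2 animals, 3 with the length and GC correction and 20 with the same sum. At 4 dpi, with 16, they numbered 9 with no trend or only the groups compared, 10 with the dorsal horn covariate and 25 when the unit number of the labels was a random block. At 14 dpi, with 1, they numbered 2 with the Rn18s-rs5 covariate or only the groups compared and 33 with the same sum. At 42 dpi, with 4, they numbered 10 with the Rn18s-rs5 covariate, 39 with the unit block, 43 with only the groups compared and 142 with the same sum.

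Members called at 28 dpi, 3 as reported, numbered 5 with quantile normalization, 7 with the same sum and 0 with the Rn18s-rs5 covariate. With the same sum Penk stood at -1.32, Sst at -1.42, Tac1 at -1.54 and Cck at -1.21, where 11022 SDEGs of all genes were lower and 34 higher. Against 14 dpi they numbered 3 in place of 5 with the same sum, the length and GC correction or without the 2 animals. The F test called 8 with the same sum and 1 with Rn18s-rs5 in place of 2. Receptors called at any time, 3 as reported, numbered 12 with the same sum (12 lower and 0 higher at 28 dpi), 0 with Rn18s-rs5 and 1 with only the groups compared or without the 2 animals. Processing and granule genes called at any time, 7 as reported (6 at 28 dpi and Vgf), numbered 20 with the same sum, 1 with Rn18s-rs5 and 4 with only the groups compared. Other peptide genes called at any time, 1 as reported, numbered 5 with quantile normalization, 13 with the same sum, 0 with Rn18s-rs5 and 3 with the unit block. Of the 36 pairs 7 passed without the 2 farthest animals in place of 11. Signs of members turned at 14 dpi with the same sum for Penk (-0.49), Sst (-0.39), Cck (-0.42) and Adcyap1 (-0.44), and with Rn18s-rs5 for Npy (0.18), Adcyap1 (0.059) and Gal (0.014) at 28 dpi and Npy (0.22) and Adcyap1 (0.090) at 42 dpi. In all, signs turned in 1 of 13 settings at 28 dpi (3 members), 4 of 13 at 14 dpi (up to 4), and of 12 settings in 1 at 4 dpi, 3 at 7 dpi and 3 at 42 dpi (up to 2 each), the fits with 1 animal left out not counted. At 28 dpi list genes turned with the same sum, all above the median of -0.72, for Tacr1 (-0.25), Oprm1 (-0.43), Adcyap1r1 (-0.64), Furin (-0.51), Slc6a5 (-0.49), Pax2 (-0.0058), Slc1a2 (-0.50) and Cx3cr1 (-0.43).

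Leaving out each animal in turn gave 413 to 1142 SDEGs in the 28 dpi comparison. The ranges were 3 to 33 in that of 4 dpi, 1 to 8 in that of 7 dpi, 1 to 1 in that of 14 dpi and 1 to 12 in that of 42 dpi. It gave 2 to 4 members at 28 dpi, 3 to 6 against 14 dpi, 2 to 3 in the F test and 0 elsewhere, with 1 to 4 receptors, 5 to 9 processing genes and 0 to 3 other peptide genes. No paired analysis was possible because the labels number animals within a unit and only unit 3 spans groups, 28 and 42 dpi. With the unit as a random block Tac1 (-0.96), Penk (-0.55) and Sst (-0.72) kept their calls and Cck passed (-0.58, adjusted p = 0.03815).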
